A study of Sus scrofa with 12 samples.

Results

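The leukocyte and immune signalling genes are the genes of the whole-genome count tables whose symbols begin with CD and a digit (CD36 left out), IL and a digit, CCL, CXCL, CCR, CXCR, TLR and a digit, IRF and a digit, or SLA-. They number 128 of the 20741 features counted, of which 10349 carry a symbol. They were chosen by name and not by level. Skeletal muscle of 12 pigs (Sus scrofa) was profiled by RNA sequencing in 6 high drip animals, 3 female and 3 male, aged 176 ± 6.92 days, and in 6 low drip animals, 3 female and 3 male, aged 178 ± 6.74 days (mean ± SD). Drip is the fluid that meat loses after slaughter, so high drip muscle holds water poorly. No breed, treatment or muscle is named in the labels, and each animal gave 1 library.

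Muscle fibres make up most of the RNA of this tissue, and immune transcripts come mainly from the macrophages, lymphocytes and endothelial cells that lie between the fibres. CD molecules are surface proteins used to tell leukocytes apart, although several, the tetraspanins among them, are found on nearly every cell. Chemokines draw leukocytes into tissue through their receptors, interleukins carry signals between cells, Toll-like receptors recognise microbial products, interferon regulatory factors switch on antiviral genes, and SLA genes encode the pig's major histocompatibility complex (MHC), which presents antigen to T cells.

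Libraries held 8009627 to 12622043 counts in genes, with a median of 9749103. Levels are given as CPM, a gene's share of its library's counts scaled by library composition and not by transcript length, so a level can be compared between animals but not between genes. The muscle actin ACTA1 stood at 57680 to 86680 CPM in high drip muscle, against 64320 to 89710 CPM in low drip animals. In 3 females, high drip 2, low drip 1 and low drip 2, the whole-genome table recorded for the animal carried another animal's number. The second table of each animal shared 737 to 745 of 770 identical counts with the whole-genome table of the same number, against 123 to 136 with the recorded table of these 3 females, and the numbers were followed. Following the records instead moves high drip 2 and low drip 2 to the other drip group. Transcripts of liver (albumin above 10 CPM) were present in 6 libraries, those of high drip 1 to 4 and low drip 5 and 6. They leave 2 high drip and 4 low drip libraries without such transcripts, those of high drip 5 and 6 and low drip 1 to 4. No high drip female is among those 6, and low drip 4 is their only low drip male. With sex as a term, the drip folds there therefore compare high drip 5 and 6 with low drip 4 alone. The folds within those 6, or with the transcripts as a term, are given for the genes with an unadjusted p under 0.05 for drip and for the groups of genes whose signs are counted.

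Immune genes took a small share of the muscle RNA, between 0.0832% and 0.1216% of all counts in a library. Of the 128 genes, 84 had a count in every library, 33 in some and 11 in none. Those with no count in any of the 12 libraries were the interleukins IL4, IL9, IL12A, IL17A, IL19, IL20, IL22 and IL24, the receptors IL5RA and IL23R, and IRF7, the factor that amplifies type I interferon. A count of 0 allows up to 3 reads, or 0.234 to 0.356 CPM depending on the library, so these genes were not detectable at this depth. The acute cytokine IL6 had 1 read in 1 library, that of low drip 5. A filter on low counts kept 74 of the 128 genes for testing, and the highest count of any of the other 54 was 15 reads. By role, the tested genes were 8 of 13 T and natural killer (NK) cell surface genes, 4 of 4 B cell genes, 5 of 7 myeloid genes, 6 of 11 other leukocyte genes and 11 of 11 widely expressed, vascular or stromal surface genes. Among signalling genes they were 4 of 4 MHC class II genes, 4 of 10 chemokines, 4 of 9 chemokine receptors, 4 of 20 interleukins, 10 of 21 interleukin receptors, 5 of 7 Toll-like receptors and 5 of 7 interferon regulatory factors. The last 4, CD2AP, CD2BP2, IRF2BPL and IL4I1, were taken by the letters of the symbol and placed in none of these roles.

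Immune genes spread over a wide range from animal to animal, at low levels. The SD of log2 CPM over the 12 animals had a median of 0.55 over the 74 tested genes, from 0.14 to 1.15, against 0.30 over all 10627 tested features. The mean level had a median of 4.27 CPM over the 74 genes, against 11.5 CPM over all features, and the part of the lower level in the wider spread was not tested. Steady genes were of the kind found on most cells. IRF3, a sensor-driven interferon factor, ranged from 12.2 to 15.7 CPM in high drip muscle, against from 10.9 to 13.5 CPM in low drip animals. CD63, a tetraspanin of lysosomes, ranged from 232 to 307 CPM in high drip muscle, against from 214 to 284 CPM in low drip animals. Among the widest spreads were those of CXCL2, CCL2 and the myeloid receptor CD200R1. CCL2, the chemokine that recruits monocytes, had 21.7, 4.59, 1.40, 12.1, 2.25 and 5.94 CPM in high drip animals 1 to 6, against 13.7, 2.72, 3.40, 2.45, 7.44 and 4.66 CPM in low drip animals 1 to 6. Its groups overlapped over nearly their whole range, and its log2 fold (high minus low drip) was 0.48 ± 0.58 (SE).

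The same few animals stood at either end for many genes. High drip 1 was the highest of the 12 animals for 25 of the 74 genes, low drip 2 for 10, and high drip 2 and low drip 5 for 8 each. Low drip 3 was the lowest for 18 genes, high drip 3 for 15 and high drip 5 for 9. The mean of log2 CPM less each gene's own mean, taken over the 74 genes, was 0.48 in high drip 1, 0.29 in high drip 2 and 0.33 in high drip 4, and -0.38, -0.32 and -0.12 in high drip 3, 5 and 6. In low drip animals 1 to 6 it was 0.03, 0.06, -0.36, -0.04, 0.17 and -0.14. High drip animals therefore held both the highest and the lowest values, with a mean of 0.05 ± 0.37 against -0.05 ± 0.19 in low drip animals (SD, n = 6 each). In bulk tissue, more cells of a type and more RNA per cell cannot be told apart.

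**Figure D1:**
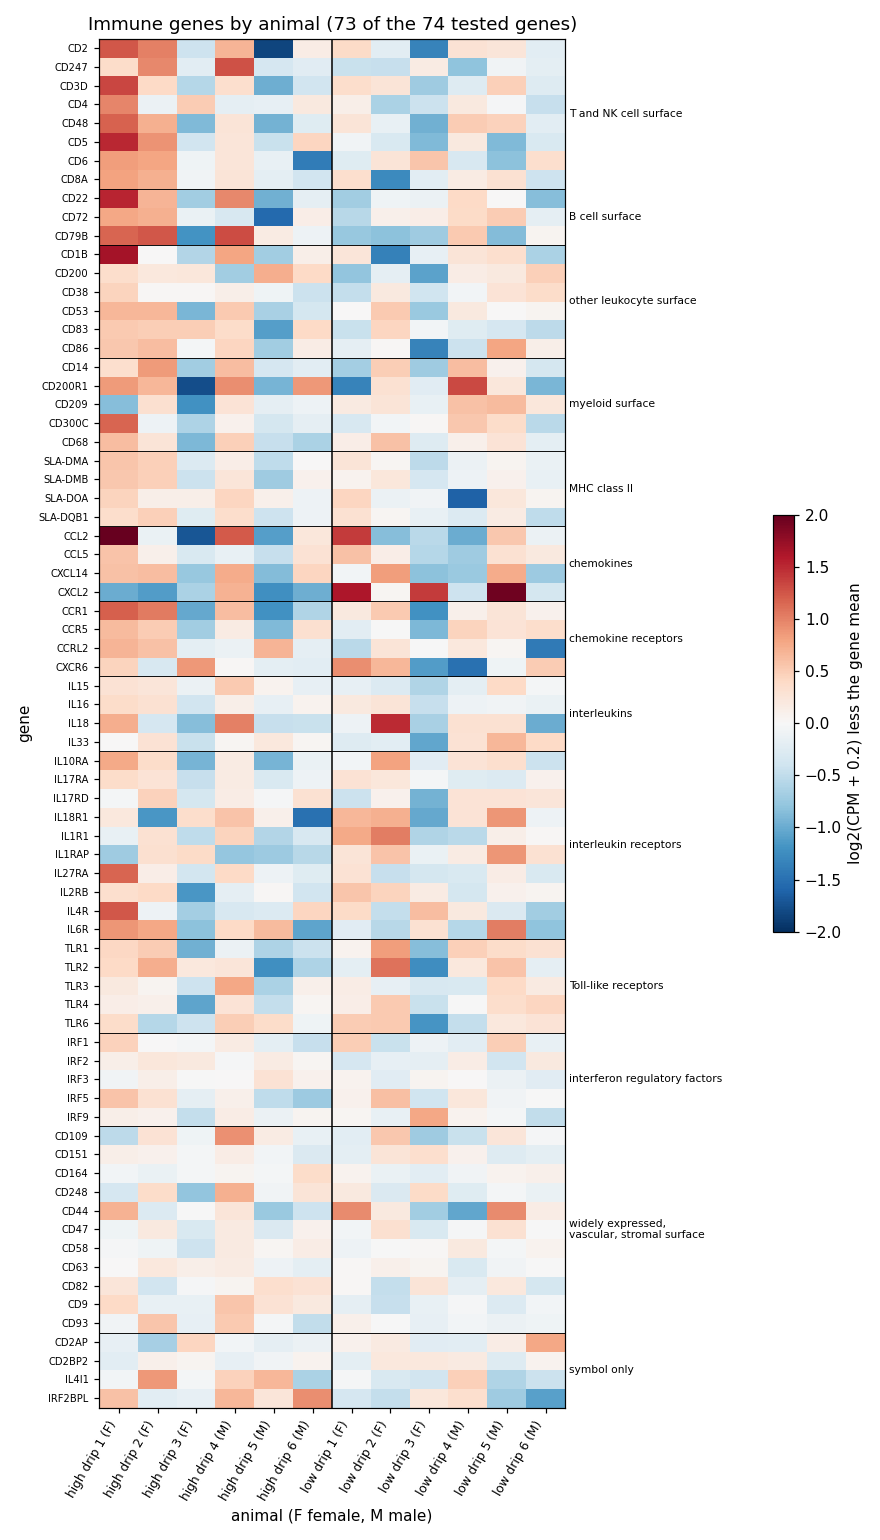
Log2(CPM + 0.2) of 73 of the 74 tested genes less each gene's mean, by animal (columns; high drip left of the line, low drip right) and grouped by role (rows); red is above the gene's mean and blue below. Columns for high drip 1, 2 and 4 are mostly red across leukocyte genes, and those of high drip 3, high drip 5 and low drip 3 mostly blue.

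The question the design poses is which genes differ between high and low drip muscle. No immune gene passed the threshold. With edgeR's quasi-likelihood test, sex as a term and Benjamini-Hochberg adjustment, 0 of 74 genes had an adjusted p under 0.05, and 0 of all 10627 features did (0%), with a smallest adjusted p of 0.999. DESeq2 and limma voom also called 0 of the 74. At an unadjusted p under 0.05, edgeR listed 8 of the 74 (10.8%), against 3.58% of all tested features. DESeq2 listed 9 of the 74, against 363 of 10627 features, and limma voom 6, against 371 of 10627. Of the 8, 6 had a positive fold (8.11% of the 74, against 1.67% of all features). The other 2 had a negative one (2.7% of the 74, against 1.91%). The 8 of 74 became 3 of 74 with tables as recorded, against 212 of 10627 features. They became 5 of 79 without the 3 females (254 of 11158 features) and 5 of 74 with liver transcripts as a term (471 of 10627). The count was 4 of 75 without high drip 1 (315 of 10878) and 4 of 76 without low drip 5 (364 of 10787). It was 5 of 76 without low drip 2 (304 of 10858) and 10 of 75 without high drip 3 (538 of 10816). Among females alone it was 2 of 65 (284 of 10080), and among males alone 4 of 68 (422 of 10347). In no gene of the 74 were the 6 high drip values separate from the 6 low drip values, a pattern that 0.0659% of all features showed with high drip above and 0.047% with high drip below. The median log2 fold was 0.13, with 49 positive and 25 negative folds, against 0.00 for all features, of which 50.36% were positive. That median was 0.02 with tables as recorded, 0.03 with liver transcripts as a term, 0.08 with age as a term and -0.11 in the libraries without liver transcripts. It was 0.15 among females alone, with 43 of 65 folds positive, and 0.03 among males alone, with 36 of 68 positive. With 1 animal left out it ran from 0.04 without high drip 1, and 0.06 without high drip 2, high drip 4 or low drip 3, to 0.21 without high drip 5 and 0.22 without high drip 3.

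**Figure D2:**
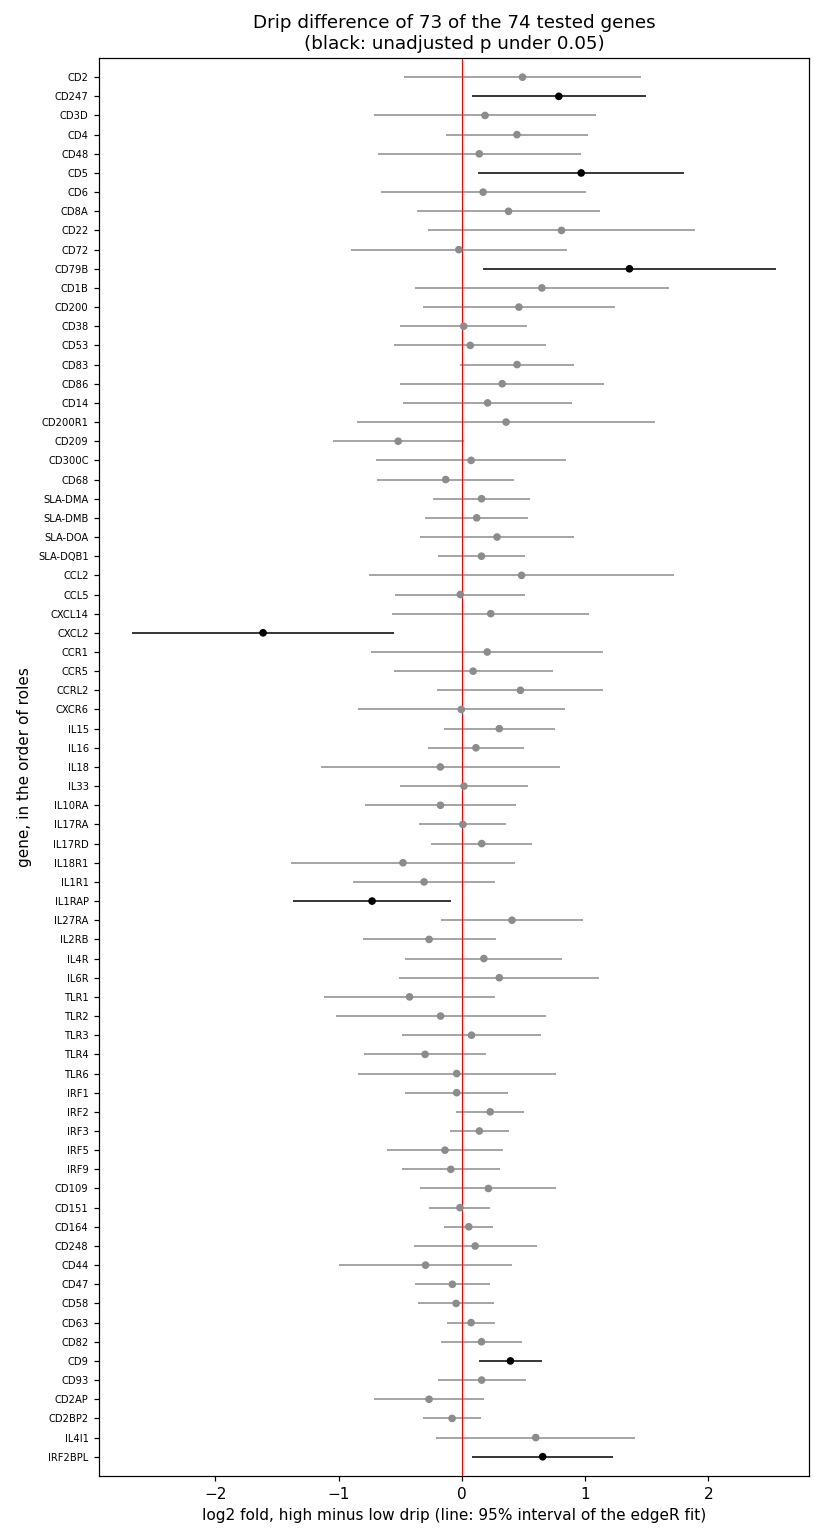
Log2 fold, high minus low drip, with its 95% interval from the edgeR fit (horizontal axis) for 73 of the 74 tested genes in the order of their roles (vertical axis); black marks an unadjusted p under 0.05. The 7 black intervals exclude 0 before adjustment, and no gene has an adjusted p under 0.05.

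B cell genes were measured on few reads. CD79B, a signalling chain of the B cell antigen receptor, had 1.39, 1.48, 0.108, 1.55, 0.593 and 0.457 CPM in high drip animals 1 to 6, against 0.218, 0.202, 0.235, 0.816, 0.188 and 0.538 CPM in low drip animals 1 to 6. These values rest on 1 to 19 reads in a high drip library and 2 to 8 in a low drip library. High drip 1, 2 and 4 lay above every low drip animal, and high drip 3 was the lowest of all 12. The log2 fold was 1.36 ± 0.56 (95% interval 0.17 to 2.55), with an unadjusted p of 0.0282 and an adjusted p of 0.999 by edgeR's quasi-likelihood test with Benjamini-Hochberg adjustment. With tables as recorded the fold was 0.24, without the 3 females 0.955, and with liver transcripts as a term 1.12. In the libraries without liver transcripts it did not pass the filter, and high drip 5 and 6 lay there between the values of low drip 1 to 4.

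Other B cell genes shared part of this order. CD22, an inhibitory receptor of B cells, averaged 0.997 ± 0.779 CPM in high drip muscle, against 0.561 ± 0.237 CPM in low drip animals (SD, n = 6 each), with a fold of 0.81 ± 0.51. CD72, a B cell co-receptor, averaged 0.808 ± 0.485 CPM in high drip muscle, against 0.807 ± 0.253 CPM in low drip animals, with a fold of -0.02 ± 0.41. MS4A1, the B cell antigen CD20, which the naming rule does not include and which was looked up after the values of CD79B were seen, had 1.29, 2.10, 0.108, 1.73, 0.237 and 0.274 CPM in high drip animals 1 to 6. In low drip animals 1 to 6 it had 0, 0, 0, 1.12, 0.377 and 0.627 CPM. High drip 1, 2 and 4 again led, and the 3 low drip females had no read. All 3 of these high drip animals are among the 6 whose libraries held liver transcripts, whose part in the B cell values was tested only as the added term above.

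Every tested T and NK cell gene had a positive fold, 8 of 8, with a median of 0.41, and 2 of them an unadjusted p under 0.05. Positive folds numbered 4 of 8 with tables as recorded and 5 of 8 with liver transcripts as a term. Among females alone 7 of the 8 genes could be fitted, and all 7 folds were positive, with a median of 0.81. Among males alone 6 could be fitted, with 3 positive and 3 negative folds and a median of -0.03. In the libraries without liver transcripts, where low drip 4 alone stands for low drip, they numbered 1 of 8, with a median of -0.50. CD247, the zeta chain of the T cell receptor, had its lowest, median and highest values at 1.78, 2.47 and 5.82 CPM in high drip animals, against 1.22, 1.81 and 2.58 CPM in low drip animals. Only high drip 1, 2 and 4 exceeded the highest low drip animal, and the fold was 0.79 ± 0.33 (unadjusted p = 0.031), 0.18 with tables as recorded, 0.53 with liver transcripts as a term and 0.59 in the libraries without them. CD5, a brake on T cell receptor signalling, ran from 0.712 over a median of 1.37 to 3.32 CPM in high drip animals, against 0.469, 0.807 and 1.22 CPM in low drip animals. Its fold was 0.97 ± 0.39 (unadjusted p = 0.0262 by edgeR) and 0.44 with tables as recorded. It was -0.14 in the libraries without liver transcripts, where low drip 4, the highest low drip animal for CD5, alone stands for low drip. The helper cell marker CD4 averaged 2.80 ± 1.07 CPM in high drip muscle, against 2.02 ± 0.525 CPM in low drip animals, with a fold of 0.45 ± 0.27. The cytotoxic cell marker CD8A averaged 1.54 ± 0.602 CPM in high drip muscle, against 1.17 ± 0.479 CPM in low drip animals, with a fold of 0.38 ± 0.35. The groups overlapped for both. CD2, an adhesion receptor of T and NK cells, averaged 2.496 ± 1.565 CPM in high drip muscle, against 1.74 ± 0.679 CPM in low drip animals, with a fold of 0.49 ± 0.45. CD3D, part of the T cell receptor, had a fold of 0.19 ± 0.42, and its medians were 0.911 CPM in high drip muscle, against 0.913 CPM in low drip animals. These medians differed by far less than the spread within a group. CD48, a ligand of CD2 family receptors, had a fold of 0.14 ± 0.38, and CD6, a T cell adhesion receptor, one of 0.17 ± 0.39. The adjusted p of each of these genes was 0.999 by edgeR with Benjamini-Hochberg adjustment. In the libraries without liver transcripts CD2, CD8A, CD48 and CD6 had folds of -0.85, -0.53, -1.11 and -0.52, again against low drip 4 alone.

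None of the myeloid and antigen-presenting genes that follow had an unadjusted p under 0.05 for drip by edgeR, and CD209 and CD83 came nearest. CD14, the co-receptor for bacterial lipopolysaccharide, averaged 4.56 ± 1.94 CPM in high drip muscle, against 3.98 ± 1.67 CPM in low drip animals (fold 0.21 ± 0.32). CD68, a macrophage lysosomal protein, averaged 8.10 ± 3.50 CPM in high drip muscle, against 8.87 ± 2.01 CPM in low drip animals (fold -0.13 ± 0.26). CD209, a lectin of dendritic cells and macrophages, averaged 2.83 ± 1.16 CPM in high drip muscle, against 4.10 ± 0.846 CPM in low drip animals, with a fold of -0.52 ± 0.25 (unadjusted p = 0.056). The 2 lowest CD209 values of all 12 animals were those of high drip 3 and high drip 1. CD200R1, an inhibitory receptor of myeloid cells, spanned 0.108 to 1.82 CPM in high drip muscle, against 0.218 to 2.45 CPM in low drip animals, a fold of 0.36 ± 0.57. CD83, a marker of mature dendritic cells, had 24.1, 23.7, 23.6, 21.7, 7.71 and 22.2 CPM in high drip animals 1 to 6, against 12.2, 22.6, 16.1, 14.2, 13.3 and 11.7 CPM in low drip animals 1 to 6. High drip 5 stood far under the other high drip animals and under every low drip animal. The CD83 fold was 0.45 ± 0.22 (unadjusted p = 0.0569).

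All 4 MHC class II genes had small positive folds, as did 2 of the 4 with tables as recorded and 2 of the 4 in the libraries without liver transcripts. SLA-DQB1, a chain of an antigen-presenting molecule, averaged 45.5 ± 11.4 CPM in high drip muscle, against 40.8 ± 8.36 CPM in low drip animals (fold 0.16 ± 0.17). SLA-DMA, part of the complex that loads peptides, averaged 10.1 ± 2.90 CPM in high drip muscle, against 8.99 ± 1.57 CPM in low drip animals (fold 0.16 ± 0.19). MHC class I genes and the class II genes CD74 and SLA-DRA had no ID under those symbols and were not analysed here. SLA genes are polymorphic and closely related, so reads may have been split or lost among them, and their values carry that uncertainty, as do those of TLR1, TLR6 and TLR10.

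**Figure D3:**
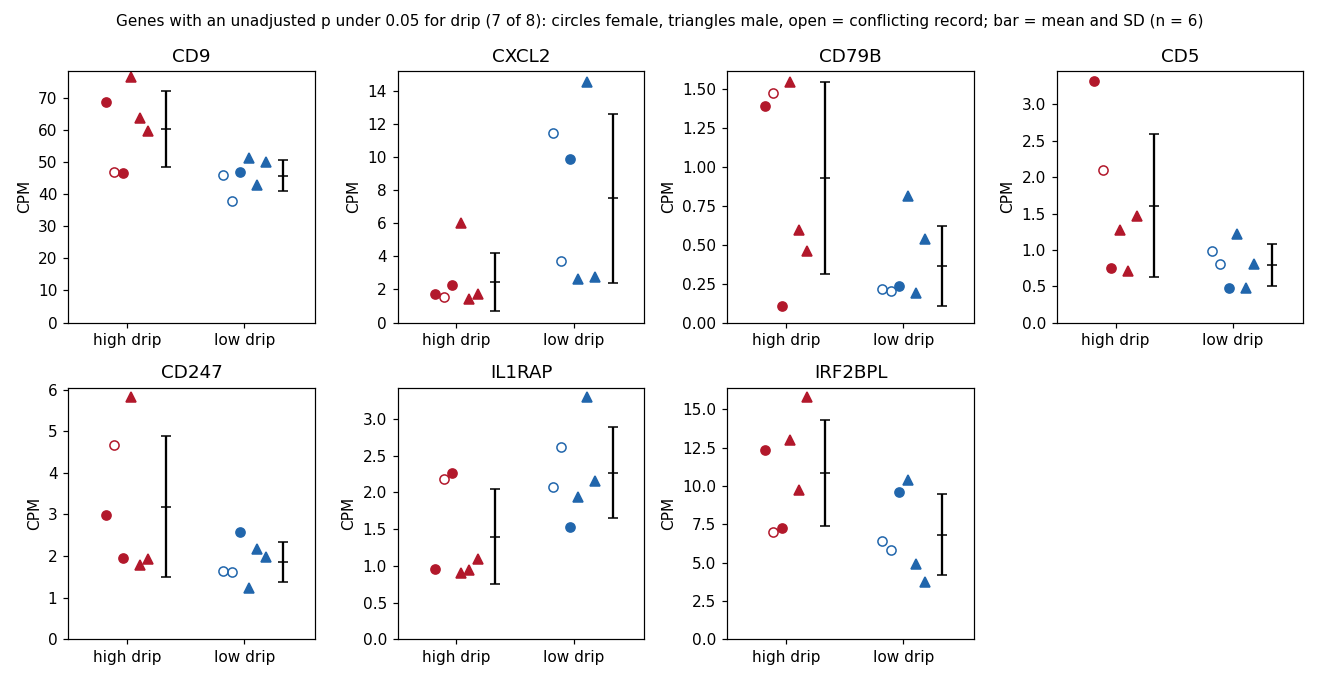
CPM (vertical axis) in each animal for 7 of the 8 genes with an unadjusted p under 0.05 for drip, high drip left and low drip right; circles are females, triangles males, open symbols the 3 females with conflicting records, and bars the mean and SD of 6 animals. The groups overlap in every panel; CXCL2 and IL1RAP have the higher mean in low drip and the other 5 in high drip.

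Chemokines did not share a direction. CXCL2, which draws neutrophils, had 1.71, 1.56, 2.27, 6.0, 1.42 and 1.74 CPM in high drip animals 1 to 6, against 11.5, 3.73, 9.86, 2.65, 14.5 and 2.78 CPM in low drip animals 1 to 6. High drip 1, 2, 3, 5 and 6 lay under every low drip animal, and high drip 4 lay above 3 of them. Its log2 fold was -1.61 ± 0.50 (95% interval -2.68 to -0.55; unadjusted p = 0.00582, adjusted p = 0.999 by edgeR with Benjamini-Hochberg adjustment). The fold ran from -2.13 without high drip 4 to -1.16 without low drip 5, and was -1.31 with tables as recorded, -1.47 without the 3 females, -1.80 with liver transcripts as a term and -0.73 in the libraries without them. The features with a symbol most like CXCL2 over the 12 animals were EGR2 (Pearson r of log2 CPM 0.88), KLF4 (0.88), ADM (0.87) and CCN1 (0.86) of 7339, and EGR1 and FOS stood sixth and seventh. EGR1, EGR2 and FOS are immediate early genes, which cells switch on within minutes of a stimulus. FOS had its lowest, median and highest values at 30.8, 108 and 330 CPM in high drip animals, against 47.8, 375 and 812 CPM in low drip animals, and its part in the CXCL2 difference was not tested. CXCL14, a chemokine made by stromal tissue, averaged 6.97 ± 2.98 CPM in high drip muscle, against 5.97 ± 3.36 CPM in low drip animals (fold 0.23 ± 0.37). CCR1, a receptor for inflammatory chemokines, had a fold of 0.21 ± 0.44, with 0.830, 2.41 and 5.25 CPM as lowest, median and highest in high drip and 0.821, 2.43 and 3.23 CPM in low drip animals.

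Among interleukins and their receptors 1 gene had an unadjusted p under 0.05. IL1RAP, the shared accessory chain of the receptors for interleukin 1 and interleukin 33, had 0.964, 2.18, 2.27, 0.909, 0.949 and 1.10 CPM in high drip animals 1 to 6, against 2.08, 2.62, 1.52, 1.94, 3.30 and 2.15 CPM in low drip animals 1 to 6. High drip 1, 4, 5 and 6 lay under every low drip animal, while high drip 2 and 3 lay among them. Its fold was -0.73 ± 0.30 (unadjusted p = 0.0282), -0.62 with tables as recorded and -0.91 both with liver transcripts as a term and in the libraries without them. IL15, a cytokine made by muscle fibres as well as leukocytes, averaged 2.92 ± 0.577 CPM in high drip muscle, against 2.38 ± 0.613 CPM in low drip animals (fold 0.30 ± 0.21). IL18, which prompts interferon gamma release, averaged 2.93 ± 1.74 CPM in high drip muscle, against 3.36 ± 2.42 CPM in low drip animals (fold -0.17 ± 0.45), and IL18R1, its receptor, had a fold of -0.48 ± 0.42. IL6R, the receptor of interleukin 6, spanned 11.4 to 44.7 CPM in high drip muscle, against 13.7 to 49.4 CPM in low drip animals (fold 0.30 ± 0.38).

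Innate sensors and interferon factors showed small folds. TLR4, the lipopolysaccharide receptor, averaged 4.99 ± 1.53 CPM in high drip muscle, against 6.16 ± 1.44 CPM in low drip animals (fold -0.30 ± 0.23), and 4 of the 5 tested Toll-like receptors had negative folds, against 3 of 5 in the libraries without liver transcripts. IRF1, a factor induced by interferon gamma, averaged 11.3 ± 2.48 CPM in high drip muscle, against 11.5 ± 3.27 CPM in low drip animals (fold -0.04 ± 0.19). IRF2, its antagonist, averaged 13.6 ± 0.903 CPM in high drip muscle, against 11.63 ± 2.03 CPM in low drip animals (fold 0.23 ± 0.13, unadjusted p = 0.0938). IRF3 had a fold of 0.14 ± 0.11.

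The smallest p belonged to a gene found on many cell types. CD9, a tetraspanin of muscle precursors, platelets and leukocytes, had 68.5, 46.9, 46.7, 76.5, 63.8 and 59.5 CPM in high drip animals 1 to 6, against 46.0, 37.7, 46.8, 51.1, 42.9 and 49.9 CPM in low drip animals 1 to 6. High drip 1, 4, 5 and 6 lay above every low drip animal, and high drip 2 and 3 lay among them. The fold was 0.39 ± 0.12 (95% interval 0.14 to 0.65; unadjusted p = 0.00553, adjusted p = 0.999 by edgeR with Benjamini-Hochberg adjustment). It stayed between 0.31 and 0.45 when any 1 animal was left out, and was 0.30 with tables as recorded, 0.42 without the 3 females and 0.27 in the libraries without liver transcripts. The other steady surface genes gave folds near 0, at 0.07 ± 0.09 for CD63, 0.06 ± 0.09 for CD164, -0.05 ± 0.14 for CD58 and 0.16 ± 0.17 for the endothelial receptor CD93. IRF2BPL, which carries the letters of the rule without being an interferon factor, had 7.01, 11.02 and 15.8 CPM as lowest, median and highest in high drip, against 3.77, 6.15 and 10.4 CPM in low drip animals. Its fold was 0.66 ± 0.27 (unadjusted p = 0.0272), 0.91 with liver transcripts as a term and 0.30 in the libraries without them.

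**Figure D4:**
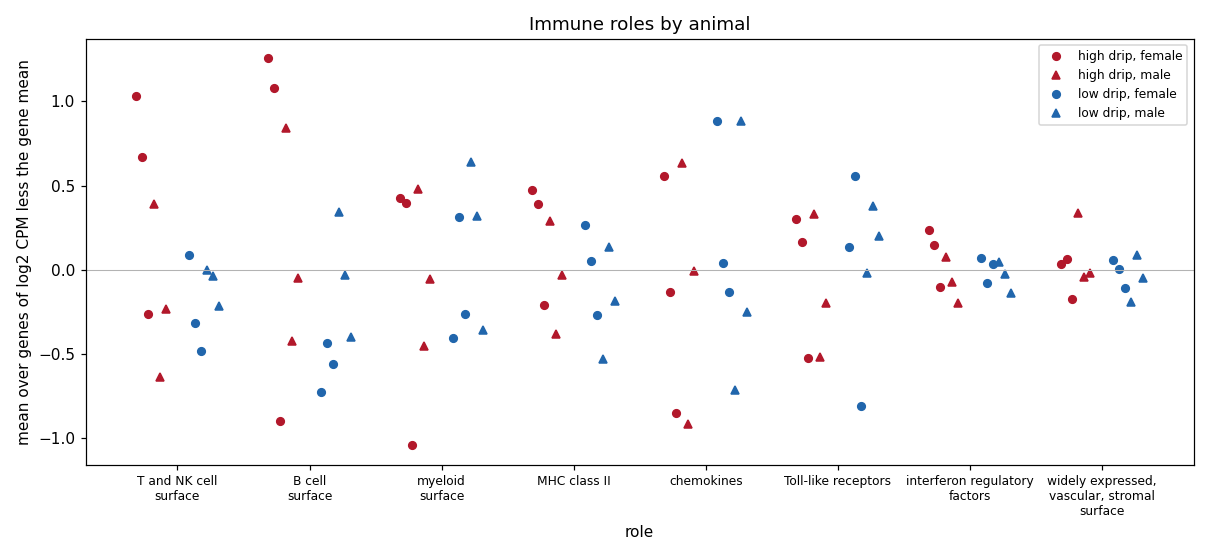
Mean over a role's tested genes of log2 CPM less the gene's mean (vertical axis), for 8 roles, in each high drip (red, left) and low drip (blue, right) animal; circles are females and triangles males. In B cell genes high drip runs from -0.90 to 1.26 and low drip from -0.73 to 0.34, and the groups overlap in every role.

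No immune gene was called for sex or for its interaction with drip. By edgeR's quasi-likelihood test with Benjamini-Hochberg adjustment, 0 of 74 genes were called between males and females (0% of all features). DESeq2 and limma voom also called 0 of the 74, and of all 10627 features DESeq2 called 2 and limma voom 0. DESeq2 listed 0 of 74 at an unadjusted p under 0.05 (690 of 10627 features) and limma voom 2 (709 of 10627). With edgeR there was 1 of 74 (1.35%, against 6.41% of all features, 3.37% with males higher and 3.04% with males lower). That gene was IL33, an alarm cytokine of endothelial and stromal cells, with 2.65 ± 0.490 CPM in males and 1.80 ± 0.576 CPM in females (SD, n = 6 each; log2 fold 0.54, unadjusted p = 0.0462). The median fold, male minus female, was -0.13, with 28 positive and 46 negative. It was -0.13 with tables as recorded, between -0.19 without high drip 3 and -0.03 without high drip 1 over the animals left out, and 0.01 without the 3 females with conflicting records, where 40 of 79 folds were positive and 39 negative. The gene count at an unadjusted p under 0.05 was 4 of 79 without those females, against 812 of 11158 features. It was 7 of 75 without high drip 4, against 795 of 10797. All 4 MHC class II genes had negative folds, also without those females. All 8 T and NK cell genes had negative folds, against 7 of 8 without those females and 5 of 8 without high drip 5. In the libraries without liver transcripts, where the sex fold compares low drip 4 with low drip 1 to 3, 3 of 8 did. For the interaction, 0 of 74 were called by edgeR, DESeq2 or limma voom, and 0 had an unadjusted p under 0.05 with each, against 3.49% of all features by edgeR, 1.83% with a negative interaction. That count was 5 of 79 without the 3 females, against 701 of 11158 features, and 6 of 74 with liver transcripts as a term, against 550 of 10627. The median interaction, the drip fold in males less that in females, was -0.28 over the 74 genes, with 29 positive and 45 negative. Over all features it was 0.003. It was negative in 7 of 8 T and NK cell genes and 4 of 4 B cell genes. With tables as recorded these were 5 of 8 and 2 of 4. Of widely expressed surface genes 8 of 11 were positive. With liver transcripts as a term 43 of the 74 were positive, with a median of 0.12. The SE of the interaction had a median of 0.55 over the 74 genes, against 0.28 for the drip fold, so an interaction had to be larger than a drip difference to be seen.

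Immune genes varied together across the animals. Over the 2701 pairs of the 74 genes, Pearson's r of log2 CPM had a median of 0.23, against 0.00 over the 56461251 pairs of all tested features. An r above 0.7 was found in 180 pairs (6.664%, against 1.162% of all pairs), and an r under -0.7 in 12 pairs (0.4443%, against 0.9199%). The pairs share libraries and genes and are not independent. With the means of the 4 drip and sex groups removed the median was 0.30, so the shared variation lay within groups. It was 0.40 among the 6 libraries with liver transcripts, 0.10 among the 6 without, and 0.21 to 0.27 when any 1 animal was left out, lowest without high drip 1.

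**Figure D5:**
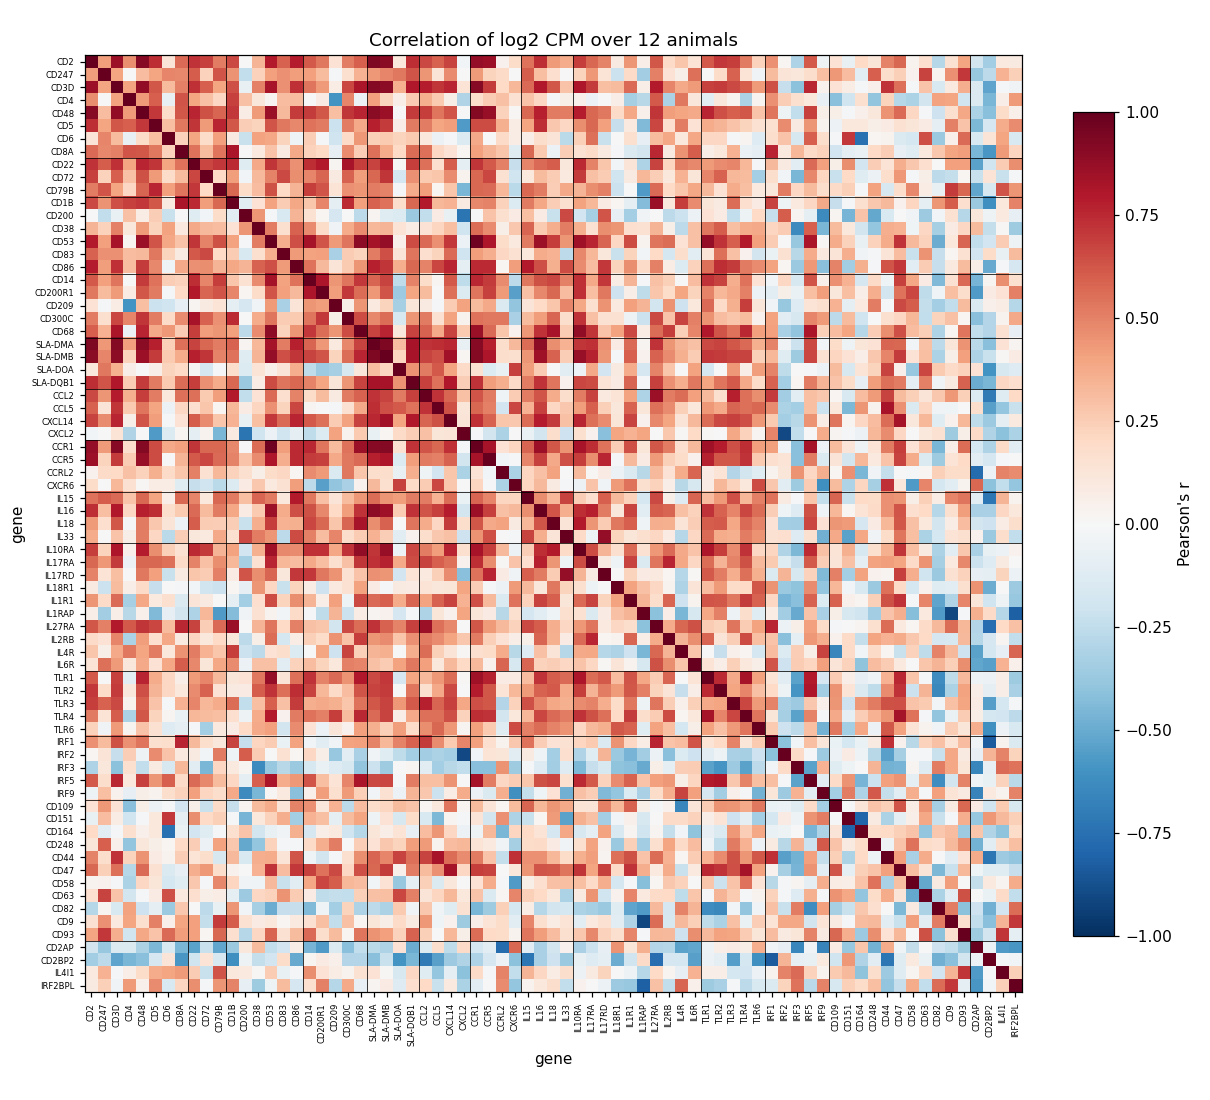
Pearson's r of log2 CPM over 12 animals for every pair of 73 of the 74 tested genes, ordered by role on both axes; red is positive and blue negative. The surface genes of leukocytes, MHC class II genes and chemokine receptors form a mostly red block, and the widely expressed surface genes a pale one.

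By permutation tests with adjustment over the 2701 pairs, Pearson's r passed in 42 pairs, 39 of them positive, and 10 pairs, all positive, also passed by Spearman's rho. The count of 42 depended on the animals. It was 1 without the 3 females with conflicting records, 3 without high drip 1, 15 without high drip 5, 17 without low drip 3, 18 without high drip 2, 20 without high drip 4 or low drip 1, and 26 without high drip 3. The median r of all 2701 pairs was 0.29 over the 9 animals without those females, against 0.23 over all 12. The part of the smaller number of animals in these counts was not tested. The pairs were chosen over all 12 libraries, so their values within part of the libraries are a description. All 39 positive pairs were positive both among the libraries with liver transcripts and among those without, and 37 of the 42 had an r above 0.7 in both.

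The tightest pair was CD53, a tetraspanin of all leukocytes, with CCR1 (r = 0.97, permutation p = 1e-05, the smallest that 100000 permutations can give, adjusted p = 0.0090; rho = 0.92, permutation p = 0.00013, adjusted p = 0.0344). CD53 had 17.5, 17.4, 5.72, 15.8, 6.88 and 8.50 CPM in high drip animals 1 to 6, against 11.03, 15.7, 6.45, 12.6, 11.02 and 11.4 CPM in low drip animals 1 to 6. High drip 1, 2 and 4 were the highest and high drip 3, low drip 3 and high drip 5 the lowest, an order that CCR1 shared in its extremes. Leaving out high drip 3 and low drip 3, which lay farthest from the median, gave an r of 0.97, and it was 0.98 among libraries with liver transcripts and 0.98 among those without. SLA-DMA went with CD2 at r = 0.93 (permutation p = 4e-05, adjusted p = 0.0154; rho = 0.92, permutation p = 9e-05, adjusted p = 0.0344) and with CD3D at r = 0.92 (permutation p = 1e-05, adjusted p = 0.0090; rho = 0.92, permutation p = 5e-05, adjusted p = 0.0344). Without the 2 farthest animals, high drip 1 and low drip 3, these values were 0.89 and 0.88. The antigen-loading gene thus followed T cell genes and a leukocyte receptor across the same animals. SLA-DMB had the most partners past the threshold, 9, followed by CCR1 and CD53 with 8 each and CD48 with 7. The features with a symbol most like CD53, of 7339, were CCR1, ARHGAP30 (r = 0.96), ITGB2 (0.95), GIMAP6 (0.95) and PRKCD (0.94). ITGB2 encodes the beta chain of the leukocyte integrins.

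Of the 3 negative pairs that passed, 2 held genes with an unadjusted p under 0.05 for drip. IL1RAP and CD9 had r = -0.91 (permutation p = 5e-05, adjusted p = 0.0158; rho = -0.89, permutation p = 0.00039, adjusted p = 0.0585), and -0.91 with group means removed. CXCL2 and IRF2 had r = -0.90 (permutation p = 0.00027, adjusted p = 0.0304; rho = -0.80, permutation p = 0.0026, adjusted p = 0.109), and -0.84 with group means removed. The third pair was CD164 with CD151 (r = -0.80, permutation p = 0.00069, adjusted p = 0.0466; rho = -0.83, permutation p = 0.0015, adjusted p = 0.0964). Of 13 pairs of known partners that were listed, only CD14 with TLR4 had both genes tested. Its r was 0.54 (permutation p = 0.0653) and its rho 0.32 (permutation p = 0.306), and leaving out high drip 3 and 5, which lay farthest from the median, gave an r of 0.35.

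Genes of the same pathways outside the naming rule gave no call for drip either, 0 of 61 by edgeR's quasi-likelihood test with Benjamini-Hochberg adjustment, by DESeq2 and by limma voom, and 0 at an unadjusted p under 0.05 with each. The interferon response list had 15 of 17 folds negative, with a median of -0.16, and 11 of 17 in the libraries without liver transcripts. Low drip 3 held the highest summed level of this list, 266 CPM, against 117 to 166 CPM in high drip animals and 103 to 168 CPM in the other low drip animals. MX1, an antiviral GTPase, had 10.17, 12.6, 7.02, 8.00, 6.88 and 9.78 CPM in high drip animals 1 to 6, against 11.03, 7.56, 30.6, 13.3, 12.7 and 3.86 CPM in low drip animals 1 to 6. Its fold was -0.49 ± 0.34, and -0.10 in the fit without low drip 3. IFIH1, a sensor of viral RNA, had a fold of -0.40 ± 0.26, and IRF9, a DNA-binding factor of this response, had 23.0 CPM in low drip 3 against 9.41 to 13.98 CPM in the other low drip and 9.51 to 14.7 CPM in the high drip animals. Low drip 3 was the highest animal for 11 of the 17 interferon genes and low drip 5 for 4, while low drip 3 was the lowest for 18 of the 74 immune genes.

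The myeloid genes C1QA, CSF1R and TYROBP, outside the rule, had drip folds smaller than their SE, as CD14 and CD68 did. C1QA, a complement component made by macrophages, averaged 28.8 ± 11.9 CPM in high drip muscle, against 28.3 ± 8.60 CPM in low drip animals (fold 0.04 ± 0.26, and -0.85 in the libraries without liver transcripts). CSF1R, the receptor that macrophages need to survive, had a fold of 0.07 ± 0.28, and TYROBP, an adaptor of myeloid and NK cells, one of 0.25 ± 0.31. RAC2, a leukocyte GTPase, averaged 4.52 ± 2.12 CPM in high drip muscle, against 3.08 ± 0.600 CPM in low drip animals (fold 0.55 ± 0.30). The complement gene CFB reached 9.96 CPM in high drip 2 and at most 1.98 CPM in the other 11 animals, and its fold was 1.35 ± 0.80, 0.58 with liver transcripts as a term and -1.12 with tables as recorded. High drip 2 is also the library with the most albumin, 311 CPM. The inhibitor NFKBIA had a fold of -0.35 ± 0.19 and the peptide-loading protein TAPBP one of 0.23 ± 0.14. Between the sexes, 5 of the 61 had an unadjusted p under 0.05 by edgeR, against 6.41% of all features. All 5 were lower in males, which makes 5 of 61 in that direction, against 323 of 10627 features (3.04%). TAPBP was among them, at 8.75 ± 2.04 CPM in males and 12.0 ± 1.40 CPM in females (fold -0.47, unadjusted p = 0.0057 by edgeR).

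Markers of other cells of the tissue are given beside these results. The lymphocyte list (8 tested of 14, none at 0 throughout) summed to 5.51 to 25.7 CPM in high drip muscle, against 5.28 to 12.0 CPM in low drip animals, with 8 of 8 folds positive, 5 of the 8 being T and B cell genes already described. In the libraries without liver transcripts 6 of the 8 could be fitted, and all 6 folds, high drip 5 and 6 against low drip 4 alone, were negative. The sums there were 7.12 and 10.06 CPM in high drip 5 and 6, against 12.0, 8.87, 5.28 and 11.1 CPM in low drip 1 to 4. The macrophage list (6 tested of 11) summed to 30.9 to 96.6 CPM in high drip muscle, against 39.5 to 84.4 CPM in low drip animals. Haemoglobin beta, a measure of blood left in the tissue, stood at 35.7 to 85.2 CPM in high drip muscle, against 20.7 to 85.7 CPM in low drip animals, and its r to CD53 was -0.09. PECAM1, an endothelial marker, stood at 118 to 194 CPM in high drip muscle, against 113 to 181 CPM in low drip animals, with an r to CD53 of 0.30. For the 3 genes with the most partners, the r to library depth was 0.48 for SLA-DMB, 0.45 for CCR1 and 0.37 for CD53. These correlations are descriptions over 12 animals, and the part of blood, vessel content or depth in the immune differences was not tested.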

How the data were processed

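Per the labels' protocols, total RNA of snap frozen muscle was extracted with Trizol, treated with DNase and made into TruSeq libraries. Per the submitters' processing notes, the tools were TopHat2 2.0.3, Bowtie 0.12.7.0 and HTSeq with build Sscrofa10.2. Strand setting and annotation release are not given in the sources used here. The deposited values are raw read counts per gene, in 2 tables per animal, and the rows that name no gene were left out: reads in no feature ran to 24.2% to 29.3% of alignments. No genome, gene position or gene length was used. Symbols came from a table of gene IDs, which matched 10349 of 20741.

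The main test was the two-sided quasi-likelihood F-test of edgeR 4.0.16 (R 4.3.3), after TMM scaling and filterByExpr, with drip and sex as terms and, for the interaction, their product. P-values were adjusted by Benjamini-Hochberg over all 10627 features, with a threshold of 0.05. Folds are log2 with the SE of the fit, and p-values measure the spread between these animals. DESeq2 1.42.0 and limma 3.58.1 were alternatives. Correlations used log2 CPM with a prior count of 2 and 100000 two-sided permutations. The limit of 3 reads behind a count of 0 covers counting error only. The edgeR fits for drip, sex and the interaction were first checked on simulated counts, and the alternatives were not. Of changes of 1.5-fold, set in features drawn from all those tested, 19.4% were recovered for drip, 22.4% for sex and 0% for the interaction. At 2-fold these shares were 68.7%, 71.6% and 8.96%.

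Named genes are those with the smallest p (12 for drip, 6 for sex, 4 for the interaction), the largest (8) or smallest (4) SD, and a list always given, of which CD74, CD163, CD3E, CD34, CD79A, CD81, CXCL12, CXCR4, SLA-DRA, SLA-1, SLA-3, PTPRC and B2M had no ID by symbol and TAP1 and IRF7 were not tested. CD3D, CD22, CD53, FOS, MS4A1, IRF9 and the genes of the pairs were named after their values were seen. An item that the rule takes is not reported here. The genes, lists, roles and tests were chosen with earlier results of these data known.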

Additional observations from a re-analysis of the deposited data

Results flagged for a closer look

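Of 120 sets of 6 animals examined, 4 held an animal far from the other 5, and chance gives about 1 in 20. CXCL2 stood at 6.0 CPM in high drip 4, against 1.42 to 2.27 CPM in the other high drip animals. CD83 stood at 7.71 CPM in high drip 5, and 21.7 to 24.1 CPM in the remaining 5. Low drip 3 accounted for the other 2, with CD2 at 0.587 CPM and CCR1 at 0.821 CPM, where the rest of the low drip animals lay at 1.51 to 2.40 CPM for CD2 and 2.33 to 3.23 CPM for CCR1.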

How the results depend on the processing

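The count of immune genes called stayed at 0 for drip, sex and the interaction, and that of pathway genes at 0 for drip, under every alternative that could be fitted: other scaling, filters, DESeq2, limma voom, age or liver transcripts as a term, tables as recorded, fewer animals and, for drip, either sex alone. The CD5 fold was -0.14 in the libraries without liver transcripts. The count of 42 correlated pairs, a family added after seeing the data, was 42 with other scaling, 44 with a prior count of 0.5, 1 without the 3 females, and 3 to 44 when 1 animal was left out. The r of CD14 with TLR4 passed the threshold without low drip 1 (0.63, permutation p = 0.037) and without low drip 6 (0.64, permutation p = 0.0285). Its range was 0.42 to 0.64 over animals left out. With group means removed the r was 0.69 (permutation p = 0.0141). That p makes no allowance for the means taken out and is therefore too small to be read as passing. The cause of these differences was not tested. The interaction could not be fitted in libraries without liver transcripts, which hold no high drip female. No paired analysis was possible because the labels give no replicate numbers. Depth limits the genes under about 1 CPM, CD22, CD72 and CD79B among them, where 1 read is 0.0778 to 0.119 CPM.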
